A study of Homo sapiens with 14 samples.

Results

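The genes described here are 9 transcription and growth-control genes, FOS, FOSL1, FOSL2, JUN, JUNB, EGR1, EGR3, IER3 and MYC, read in 7 human prostate cancer cell lines. They were chosen by name, with earlier results of these data known. A probe set annotated with exactly 1 of these symbols stood for each gene, and for IER3, the 1 gene with several (3), that of highest average intensity was taken. All 9 genes were measured, out of 18372 genes in all.

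The series asked how expression differs between prostate cancer lines that form bone metastases and lines that do not, and measured total RNA on 14 single-colour arrays, 2 per line, from different passages in culture. PC3-ML and PC3-N derive from PC3. Single PC3-ML cells gave rise to PC3-ML (Clone 1) and PC3-ML (Clone 3), here Clone 1 and Clone 3, so that each stands for 1 clone. The lines marked (PDGFRα), made from PC3-N and from DU-145, carry an overexpressed alpha receptor for platelet-derived growth factor, and the labels name no line that was handled the same way without the receptor. PC3-N(PDGFRα), PC3-ML and both clones are labelled bone metastatic. PC3-N and both DU-145 lines are not. Culture was the same for all 7 lines (DMEM, fetal bovine serum, gentamicin), with no growth factor or drug named as added.

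Immediate early genes are transcribed within minutes of a growth signal, without new protein synthesis, mostly through serum response factor, ternary complex factors and CREB acting downstream of the ERK and other MAP kinases. The FOS proteins pair with JUN proteins to form AP-1, a dimeric transcription factor, and EGR1 and EGR3 are zinc finger factors of the same early wave. IER3 is a short-lived stress and survival protein. MYC, itself growth-factor induced, pairs with MAX and drives ribosome production, nucleotide and polyamine synthesis and the cell cycle. For these cultures in serum no added growth factor was named, and what set the levels of these messages was not tested.

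Values are deposited intensities on a linear scale, which ran from 18.5 to 8654 over all probe sets, with array medians of 29.9 to 31.6. Arrays of a line correlated at r = 0.989 to 0.996 across genes and arrays of different lines at 0.926 to 0.993, and genes are not independent replicates. PDGFRA, the overexpressed gene, was higher in PC3-N(PDGFRα) than in PC3-N by 2.97 ± 0.19 (SE) on the log2 scale (limma, adjusted p = 8.0e-05), and in DU-145 (PDGFRα) than in DU-145 by 2.03 ± 0.19 (adjusted p = 0.00454). Its mean intensity was 834 in PC3-N(PDGFRα), 106 in PC3-N, 111 in DU-145 (PDGFRα) and 26.9 in DU-145. DU-145 (PDGFRα) thus lay near the level of PC3-N without overexpression. Of 6 measured epithelial markers, 3 to 5 exceeded 2 times the array median on both arrays of a line, fewest in PC3-ML and PC3-N(PDGFRα) (3). CDH1, the gene of E-cadherin, averaged 25.9 to 31.7 in the PC3 lines, near or under the array median, 53.4 in DU-145 (PDGFRα) and 166 in DU-145. No line of either background had all 6 epithelial markers above 2 times the array median. In no line did any of 7 fibroblast markers exceed that level, and of 7 leukocyte and endothelial markers 1 did, PECAM1, in PC3-N(PDGFRα) and Clone 1. Of 7 prostate luminal markers 3 were measured. Of those HOXB13 exceeded that level in the PC3 lines, and KLK2 and KLK3, which define secretory luminal cells, did not. In bulk RNA, fewer cells of a type and less RNA per cell cannot be told apart.

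FOSL1 and IER3 had no usable promoter entry in the RefSeq table of GRCh38.p14. MYC and EGR3 were left out of the promoter search by choice, so their motifs are not described. Promoter sequences are shown for the remaining 5 genes, so that matches to elements known from this class of gene, where present, can be seen. Each is the 150 bases before the transcription start, 5′ to 3′ on the gene's own strand, in lower case, with capitals at exact matches, on either strand, to TATAAA (the core promoter box bound by TBP), TGACGT (the shared core of CREB sites), the CArG box (bound by serum response factor) or TGACATCA (an AP-1 and ATF form). They lie at chr14:75278678-75278827 (+) for FOS, chr2:28392708-28392857 (+) for FOSL2, chr1:58784048-58784197 (−) for JUN, chr19:12791336-12791485 (+) for JUNB and chr5:138465329-138465478 (+) for EGR1.
FOS: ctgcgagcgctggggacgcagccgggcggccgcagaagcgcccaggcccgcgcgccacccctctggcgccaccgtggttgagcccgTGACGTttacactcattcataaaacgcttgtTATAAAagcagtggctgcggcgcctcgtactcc
FOSL2: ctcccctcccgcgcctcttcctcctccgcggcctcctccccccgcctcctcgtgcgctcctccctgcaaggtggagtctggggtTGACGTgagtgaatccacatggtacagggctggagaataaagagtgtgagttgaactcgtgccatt
JUN: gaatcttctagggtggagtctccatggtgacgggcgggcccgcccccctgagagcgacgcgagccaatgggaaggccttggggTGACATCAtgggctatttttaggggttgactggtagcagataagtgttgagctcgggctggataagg
JUNB: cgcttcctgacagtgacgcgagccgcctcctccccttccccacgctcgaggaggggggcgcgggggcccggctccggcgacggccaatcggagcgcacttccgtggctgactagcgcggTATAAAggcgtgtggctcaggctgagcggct
EGR1: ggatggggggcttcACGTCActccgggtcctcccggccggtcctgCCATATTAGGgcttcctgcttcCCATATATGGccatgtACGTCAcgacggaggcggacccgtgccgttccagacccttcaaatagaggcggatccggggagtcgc

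In the 250 bases before the start, which were searched on both strands, EGR1 held both CArG boxes found among the 5 genes, at -105 to -96 and at -83 to -74, and the CArG box was in 1.16% of 35116 promoters of the same length. TGACGT was in 3 of the 5 genes, 2 times in EGR1 and once each in FOS and FOSL2, and in 7.10% of all promoters. FOS and JUNB had a TATAAA, which was in 10.7% of all promoters, and JUN had a TGACATCA, which was in 2.37%. GGGCGG, the core of an SP1 site, was in 3 of the 5 and in 42.6% of all promoters, and GCGNGGGCG, an EGR1 site, in 1 of the 5, EGR1 itself, outside the printed window, and in 8.41% of all. Neither TGANTCA, the AP-1 consensus, in 6.57% of all promoters, nor the full TGACGTCA, in 1.65%, was found in these 5. The matches describe letters in this window and are not evidence of binding. Elements farther from the start were not searched, so a motif missing here may lie outside the window.

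Among the FOS family, FOS itself was close to the lower end of the scale. Its 14 arrays ran from 25.4 to 33.3 with a median of 28.2, under the lowest array median, and line means spanned 0.30 on the log2 scale. The lines overlapped throughout the order, apart from DU-145 at the top (29.9 and 33.3) and Clone 1 at the bottom (25.4 and 25.7), each of which stood clear of the line next to it. FOS did not pass the test of any difference among the 7 lines (limma F test, adjusted p = 0.163).

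FOSL1, which encodes FRA1, a FOS family protein linked to invasive carcinoma cells, had intensities of 199 and 174 in Clone 3, 168 and 169 in PC3-N, 161 and 167 in Clone 1, 159 and 168 in PC3-ML and 149 and 151 in PC3-N(PDGFRα). The DU-145 lines were lower, at 92.0 and 121 in DU-145 and 102 and 123 in DU-145 (PDGFRα). The lowest PC3 array, at 149, lay above the highest DU-145 array, at 123. Neighbours within the PC3 lines were 0.01 to 0.14 apart on the log2 scale, against a pooled SD of 0.12 between passages, and no pair of PC3 lines compared differed in FOSL1 by the test.

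FOSL2, which encodes FRA2, ran the other way. DU-145 (PDGFRα) had 58.5 and 55.1 and DU-145 had 53.3 and 53.2, whereas PC3-N had 47.0 and 47.1. The remaining 4 lines lay lower still, with PC3-ML at 44.3 and 41.8, Clone 3 at 42.2 and 42.5, PC3-N(PDGFRα) at 39.6 and 42.0 and Clone 1 at 39.7 and 41.7. The arrays of DU-145 (PDGFRα), DU-145, PC3-N and PC3-ML did not overlap from each of these lines to the next, and the span of line means was small, 0.48 on the log2 scale.

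In the JUN family, JUN, the main partner of FOS proteins in AP-1, separated the clones from the other lines. It was 95.0 and 79.8 in PC3-ML, 76.5 and 88.9 in PC3-N and 78.3 and 71.0 in PC3-N(PDGFRα), and 68.0 to 73.4 in the 4 DU-145 arrays. Clone 3, at 57.0 and 59.4, and Clone 1, at 61.0 and 54.6, lay below every other array. How many of all genes set both clones apart in this way was not counted. The clones overlapped each other, as did each pair of neighbours among the remaining 5 lines.

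JUNB, a JUN family protein that can oppose JUN, varied between passages about as much as between lines. DU-145 (PDGFRα) read 83.1 and 118 and DU-145 read 83.3 and 92.5, and the 10 PC3 arrays lay between 61.4, in PC3-N(PDGFRα), and 83.0, in Clone 3. The groups met without overlapping, with the highest PC3 array at 83.0 and the lowest DU-145 array at 83.1. JUNB did not pass the test over the 7 lines (limma F test, adjusted p = 0.183).

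Of the EGR genes, EGR1 divided the lines into 2 levels. It was 105 and 71.2 in DU-145 and 77.3 and 88.0 in DU-145 (PDGFRα), and 36.2 to 42.9 in all 10 PC3 arrays. The gap between the lowest DU-145 line and the highest PC3 line was 0.99 on the log2 scale, whereas the 5 PC3 line means spanned 0.15, the pooled SD between passages being 0.15. EGR3 lay near the floor on every array, from 24.2 to 26.6, and its line means spanned 0.06. No difference between lines was detectable for EGR3 at this signal (limma F test, adjusted p = 0.970).

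IER3 was well above the array median in all 7 lines, from 156 to 243, and was not ordered by line. The passages of DU-145 read 173 and 243, a spread that held both values of PC3-ML (226 and 190), PC3-N(PDGFRα) (218 and 231), DU-145 (PDGFRα) (219 and 228) and Clone 3 (201 and 233). PC3-N had the lowest mean, with 198 and 156, and Clone 1 the highest, with 243 and 220. Each line's arrays overlapped those of the next in the order, and IER3 did not pass the test over the lines (limma F test, adjusted p = 0.500).

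MYC had the widest span of the 9 genes, 1.95 on the log2 scale or 3.87-fold between line means. Clone 3 was highest with 503 and 414, and PC3-ML followed with 313 and 332, Clone 1 with 295 and 320, PC3-N with 294 and 283 and PC3-N(PDGFRα) with 243 and 229. DU-145 at 121 and 115 and DU-145 (PDGFRα) at 120 and 119 overlapped. Clone 3 stood 0.50 above PC3-ML and PC3-N(PDGFRα) stood 0.29 below PC3-N without overlap of arrays, and PC3-ML and Clone 1 overlapped.

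**Figure D1:**
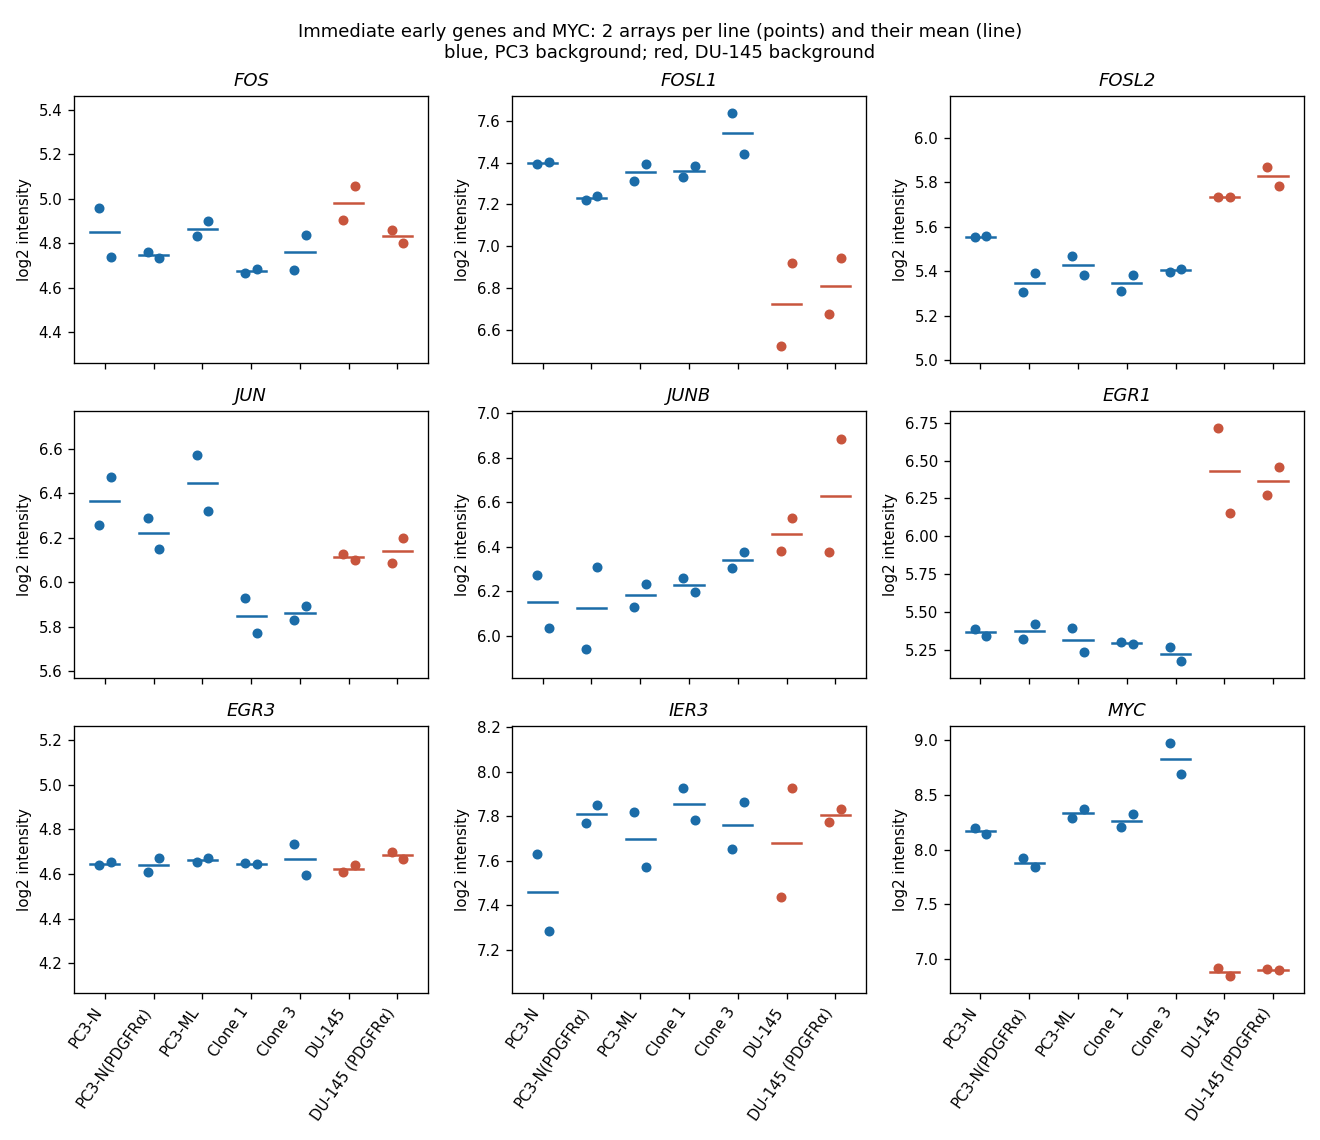
Log2 intensity (vertical axis, a different range in each panel) of the 9 genes by line (horizontal axis), with a point for each of the 2 arrays and a bar at their mean, PC3 lines in blue and DU-145 lines in red. MYC and FOSL1 are higher in every PC3 array, EGR1 and FOSL2 higher in every DU-145 array, JUN is lowest in the 2 clones, and EGR3 and FOS lie near the lower end of the scale.

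Between the backgrounds, the mean of the 5 PC3 lines was compared with the mean of the 2 DU-145 lines. MYC was 2.65-fold and FOSL1 1.53-fold higher in the PC3 lines, and EGR1, FOSL2 and JUNB were lower. In all 5 of the 9 genes were called, 2 higher and 3 lower, where called means an adjusted p under 0.05 over 18372 genes. This share is to be read against a background of 38.8% of all genes called in this comparison, 22.3% higher and 16.5% lower, so the number called among 9 is not in itself a result about these genes.

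The log2 difference was 1.41 ± 0.05 (SE) for MYC (limma, adjusted p = 2.1e-08) and 0.61 ± 0.07 for FOSL1 (adjusted p = 8.1e-05). For EGR1 it was -1.09 ± 0.09 (adjusted p = 5.0e-06) and for FOSL2 -0.36 ± 0.03 (adjusted p = 1.1e-05). For each of these 4 genes and for JUNB, all 10 PC3 arrays lay on one side of all 4 DU-145 arrays, as they did for 17.5% of all genes. JUNB was -0.34 ± 0.10 (adjusted p = 0.0188), a call that was lost without DU-145 replicate 2 or without DU-145 (PDGFRα) replicate 2, with adjusted p of 0.0789 and 0.0929. FOS was at -0.13 ± 0.05 (adjusted p = 0.0745) and was called in 4 alternatives, with adjusted p down to 0.0258 without PC3-N replicate 1. JUN at 0.02 (adjusted p = 0.824), IER3 at -0.03 (0.856) and EGR3 at -0.00 (0.970) did not pass.

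These p-values measure a difference against the spread between passages of the same lines. PC3 and DU-145 are 1 background each, so that what belongs to MYC or EGR1 and what belongs to any other difference between the backgrounds cannot be told apart. Markers moved with the backgrounds as well. Of 6 measured epithelial markers 2 were higher and 3 lower in the PC3 lines, including CDH1 at -1.56 and KRT8 at -0.96, with summed line intensities of 1266 to 3030 in PC3 lines and 2218 to 3033 in DU-145 lines. Of the 7 leukocyte and endothelial markers 1, PECAM1, was higher, by 1.44 (summed intensities of 184 to 224 against 163 to 165), and of the 3 prostate luminal markers HOXB13 was higher, by 2.11 (158 to 263 against 85.9 to 91.1). The part of these in the differences was not tested, and the fibroblast markers summed to 196 to 208 against 202 to 209, with 0 of 7 called.

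The test over all 7 lines called 5 of the 9 genes beside 38.0% of all genes. They were MYC (limma F test, adjusted p = 7.7e-07), EGR1 (2.2e-04), FOSL2 (2.7e-04), FOSL1 (0.00223) and JUN (0.00492). JUN was called here and not between the backgrounds, and JUNB the reverse.

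**Figure D2:**
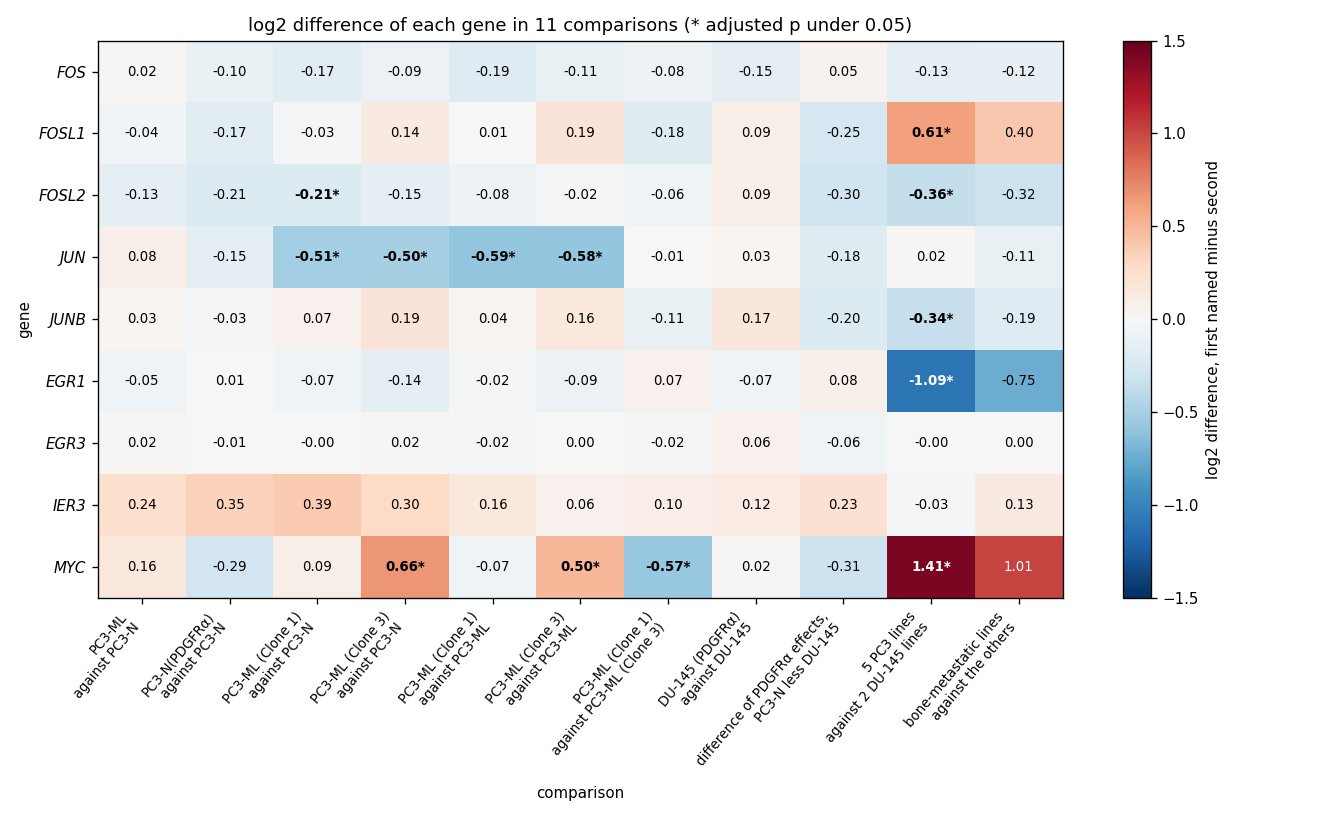
Log2 difference of each of the 9 genes (rows) in 11 comparisons (columns), first named minus second, with the colour scale ending at 1.5 in either direction and an asterisk where the adjusted p over all genes was under 0.05. MYC is 1.41 higher and EGR1 1.09 lower in the PC3 lines, JUN is about 0.5 to 0.6 lower in both clones against PC3-ML and PC3-N, and the columns of PC3-ML against PC3-N and of PDGFRα overexpression hold no asterisk.

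Within the PC3 background, the clones were compared with PC3-ML, the line they came from. JUN was lower in both clones, and MYC was higher in Clone 3 and not in Clone 1. The comparisons share the 2 PC3-ML arrays, so their values are given side by side and their likeness is not a result. JUN was -0.59 ± 0.10 (SE) in Clone 1 (limma, adjusted p = 0.00403) and -0.58 ± 0.10 in Clone 3 (adjusted p = 0.00848). MYC was -0.07 ± 0.09 in Clone 1 (adjusted p = 0.728) and 0.50 ± 0.09 in Clone 3 (adjusted p = 0.00792).

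In Clone 1 against PC3-ML, JUN was the 1 gene of 9 called, beside 13.8% of all genes (9.01% higher and 4.77% lower). In Clone 3 against PC3-ML 2 of 9 were called beside 8.10% of all genes (5.20% higher and 2.90% lower). Leaving out 1 array at a time, JUN in Clone 1 kept its call, with adjusted p up to 0.0431. In Clone 3, JUN lost its call without PC3-ML replicate 1 (adjusted p = 0.0772) and without Clone 3 replicate 1 (0.0609), and MYC lost its call without PC3-ML replicate 1 (0.0751).

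Set directly against each other, Clone 1 had less MYC than Clone 3 by -0.57 ± 0.09 (adjusted p = 0.00264), the 1 gene of 9 called beside 10.5% of all genes (5.85% higher and 4.63% lower). This difference kept its call in each of 10 alternatives, with adjusted p up to 0.0282. JUN differed by -0.01 (adjusted p = 0.985). Each clone is 1 line, so a property of a clone and a property of cloning cannot be told apart. Of 6 epithelial markers 3 were higher in Clone 1 than in PC3-ML, beside 9.01% of all genes: KRT18 by 2.20, EPCAM by 1.81 and KRT8 by 0.92. CDH1, KRT19 and CLDN4 were not called. Their summed intensity was 3030 in Clone 1, with EPCAM alone at 1635, against 1266 in PC3-ML and 1439 in Clone 3. In Clone 3 against PC3-ML 0 of 6 were called, beside 8.10% of all genes. PECAM1, 1 of 7 leukocyte and endothelial markers, was higher in Clone 1 than in PC3-ML by 1.03 and than in Clone 3 by 0.89 (summed intensities of 224, 186 and 184), and HOXB13, 1 of 3 prostate luminal markers, was at -1.02 against Clone 3 (158 against 258). PDGFRA read 31.0 and 26.5 in Clone 1, near the floor, 104 and 155 in PC3-ML and 130 and 126 in Clone 3. The part of these markers and of PDGFRA in the MYC and JUN values was not tested.

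Against PC3-N, which is not bone metastatic, JUN was lower in both clones and MYC was called in Clone 3 alone. In Clone 1 JUN was lower by -0.51 ± 0.10 (adjusted p = 0.00870) and FOSL2 by -0.21 ± 0.06 (adjusted p = 0.0334), 2 of 9 genes beside 13.1% of all genes (8.02% higher and 5.11% lower), and MYC was at 0.09 ± 0.09 (adjusted p = 0.628). In Clone 3 MYC was higher by 0.66 ± 0.09 (adjusted p = 0.00239) and JUN lower by -0.50 ± 0.10 (adjusted p = 0.0169), 2 of 9 beside 6.86% of all genes (4.16% higher and 2.69% lower). MYC in Clone 3 kept its call in each of 10 alternatives, with adjusted p up to 0.0170. The FOSL2 call was lost in 7 of 10 (adjusted p up to 0.202). JUN lost its call in Clone 1 without PC3-N replicate 2 (0.0651) or Clone 1 replicate 2 (0.0763), and in Clone 3 without PC3-N replicate 2 (0.113) or either Clone 3 array (0.0707 and 0.102). All comparisons with PC3-N share its 2 arrays. In Clone 1, EPCAM was 1.52 and PECAM1 0.87 higher and LYZ, a leukocyte marker, and HOXB13 at -0.51 and -0.99 (1 of 6 epithelial, 2 of 7 leukocyte and endothelial and 1 of 3 prostate luminal markers called), and in Clone 3 KRT8 was at -0.91, the 1 marker called. Summed intensities in Clone 1, Clone 3 and PC3-N were 3030, 1439 and 1845 for the epithelial, 224, 184 and 197 for the leukocyte and endothelial and 158, 258 and 263 for the prostate luminal list, and the part of the markers was not tested.

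Between PC3-ML and PC3-N, the uncloned sublines, no call was made among these genes with 2 arrays a line. Of the 9, 0 were called by limma, beside 0.348% of all genes. Beside 1930 of all 18372 genes with an unadjusted p under 0.05, 1 of the 9 had one. That gene was FOSL2, at -0.13 (unadjusted p = 0.0425, adjusted p = 0.451). MYC differed by 0.16 ± 0.09 (adjusted p = 0.598) and JUN by 0.08. The arrays of 3 of the 9, FOSL2, MYC and EGR3, did not overlap between these lines, as for 39.5% of all genes.

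With the receptor overexpressed, none of the 9 genes was called in either background. In PC3-N(PDGFRα) against PC3-N, where 2.20% of all genes were called by limma (1.52% higher and 0.680% lower), 0 of 9 were called. Beside 2513 of all 18372 genes with an unadjusted p under 0.05, 2 of the 9 had one. These were FOSL2 at -0.21 ± 0.06 (unadjusted p = 0.00408, adjusted p = 0.101) and MYC at -0.29 ± 0.09 (unadjusted p = 0.00753, adjusted p = 0.141), and the arrays of 4 of the 9, FOSL1, FOSL2, IER3 and MYC, did not overlap, as for 43.9% of all genes. The direction of MYC held in every alternative, with adjusted p of 0.0528 after quantile normalization at the lowest. IER3 differed by 0.35 ± 0.16 (adjusted p = 0.399), and EGR1, the classic early target of receptor signalling, was at 0.01.

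In DU-145 (PDGFRα) against DU-145, 0 of 9 were called by limma beside 0.310% of all genes. An unadjusted p under 0.05 was found for 0 of 9 and for 2386 of all 18372 genes. MYC differed by 0.02 ± 0.09 and EGR1 by -0.07. The effects of the receptor in the backgrounds were also compared with each other: 0 of 9 were called, beside 0.533% of all genes, and FOSL2 (-0.30 ± 0.08, unadjusted p = 0.00363, adjusted p = 0.152) and MYC (-0.31 ± 0.12, unadjusted p = 0.0316, adjusted p = 0.341) were the 2 with an unadjusted p under 0.05. Among all 18372 genes, 2273 had an unadjusted p under 0.05 in that comparison. PDGFRA averaged 834 in PC3-N(PDGFRα) and 111 in DU-145 (PDGFRα), so the levels reached were not alike. A difference that misses the threshold with 2 arrays a line does not show that the receptor left these genes unaltered. In all, 8 pairs of lines were compared.

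Bone metastasis is a label of whole lines, and was therefore compared on the 7 line means, 4 against 3. The bone-metastatic lines had more MYC on average, by 1.01 ± 0.38 (SE), and less EGR1, by -0.75. PC3-N, the PC3 line without bone metastasis, lay with the other PC3 lines. Its MYC line mean was 289 against 236 to 456 in the bone-metastatic lines and 118 to 119 in the DU-145 lines, and its EGR1 was 41.2 against 37.4 to 41.4.

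By limma on the line means 0 of 9 genes were called, and 0% of all 18372 genes. Beside 2250 of all genes with an unadjusted p under 0.05, 3 of the 9 had one. MYC, EGR1 and FOSL2 each had an adjusted p of 0.405 and FOSL1, at 0.40, of 0.411. FOSL2 was the 1 gene of 9 whose line means did not overlap between the labels, 40.7 to 43.0 against 47.0 to 56.8, as was so for 9.33% of all genes, with a difference of -0.32 and an exact two-sided permutation p of 0.0571, which is the smallest that 35 splits of 4 and 3 lines allow. The exact permutation p was 0.114 for MYC, 0.114 for EGR1 and 0.229 for FOSL1. Without the line PC3-N the labels coincide with the backgrounds, and MYC (1.44, adjusted p = 0.0215), EGR1 (-1.10, 5.5e-04), FOSL1 (0.61, 0.0135) and FOSL2 (-0.40, 0.00644) were then called, 4 of 9 beside 13.7% of all genes. The lines descend from 2 backgrounds and are not independent.

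**Figure D3:**
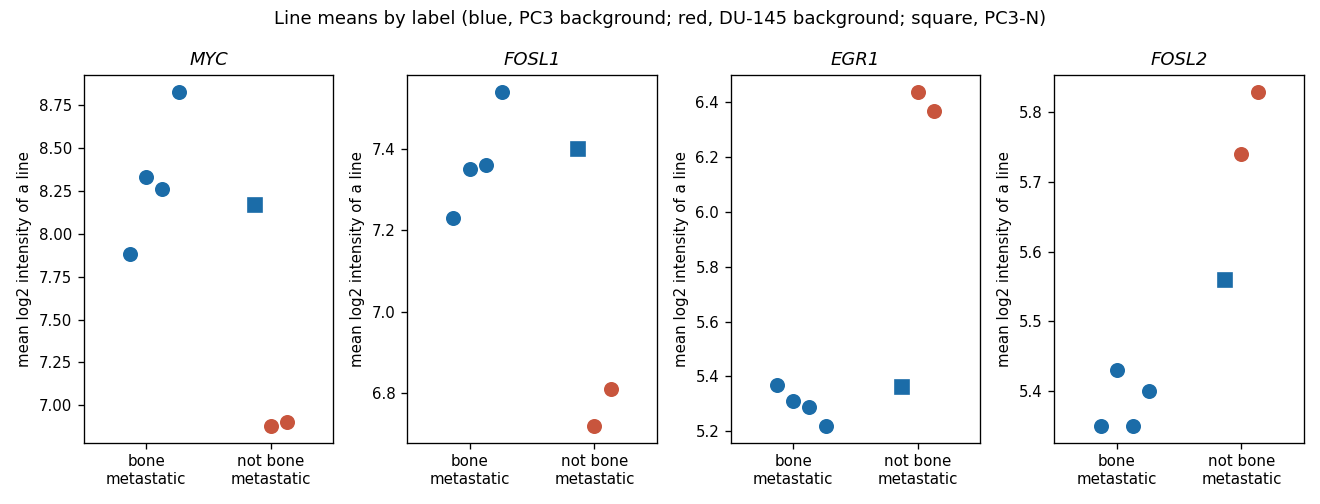
Mean log2 intensity of each line (vertical axis, a different range in each panel) for MYC, FOSL1, EGR1 and FOSL2, with lines grouped by the label of bone metastasis, PC3 lines in blue, DU-145 lines in red and PC3-N as a square. PC3-N sits at the level of the bone-metastatic PC3 lines for MYC, FOSL1 and EGR1, and between them and the DU-145 lines for FOSL2.

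The wider pathways are described by lists of genes, of which 137 of 152 different genes were measured. Most feedback and output genes of the MAP kinases were, like MYC, higher in the PC3 lines. Of 15 such genes, 13 were higher and 1 lower in the PC3 lines, with a median difference of 0.71 against -0.01 for all genes and backgrounds of 22.3% and 16.5%. SPRED1 (1.69, intensities of 155 and 160 in the DU-145 lines and 335 to 775 in the PC3 lines), SPRY1 (1.41) and SPRY4 (1.05) restrain ERK signalling, and ETV4 (1.01) is a transcription factor that ERK signalling raises. The gene that was lower, DUSP1, an immediate early phosphatase, was at -0.53 ± 0.06 (adjusted p = 6.0e-05) and is named after its value was seen. EGR1 and DUSP1 were thus higher in the DU-145 lines while 13 of the 15 feedback and output genes were higher in the PC3 lines.

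Of 25 other immediate early genes, 10 were higher and 6 lower in the PC3 lines, with a median of -0.04. This count and those of the next lists stand beside 22.3% of all genes higher and 16.5% lower. Higher were BHLHE40 (1.25), a circadian and stress repressor, and TRIB1 (0.96), a pseudokinase scaffold. Lower were ZFP36L1 (-0.87), which speeds mRNA decay, and CCN1 (-0.81), a matrix-associated protein. Of 12 other members of the AP-1 family, 0 were higher and 3 lower: JUND (-0.13), ATF4 (-0.19) and JDP2 (-0.15), named after their values were seen. None of the 12 passed the test over the 7 lines by limma, and 4 had an unadjusted p under 0.05, beside 8321 of all 18372 genes. Of 11 regulators of immediate early transcription, 2 were higher (ELK4 at 0.17 and CREB1 at 0.24, named after their values were seen) and 1 lower, ETS2 (-0.69), a factor that MAP kinases activate.

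Downstream, of 16 genes known as targets of AP-1 or FOSL1, 6 were higher and 4 lower, beside 22.3% and 16.5% of all genes. The list median was 0.10. CD44, a hyaluronan receptor, was 0.65 higher. IL6, a cytokine, was at -1.86, with means of 25.4 to 30.8 in the PC3 lines and 99.3 and 106 in the DU-145 lines, and VEGFA, the angiogenic growth factor, was at -1.69. MMP9, a matrix protease, was at -0.11 and lay near the floor. The list did not move in 1 direction with FOSL1.

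Among 20 measured genes that MYC is known to induce for growth, 13 were higher and 1 lower in the PC3 lines. The shares of all genes were 22.3% and 16.5%, and the list median was 0.29 against -0.01 for all genes. CDK4, a cell-cycle kinase, was higher by 1.31 ± 0.07 (adjusted p = 3.0e-07), ODC1 and SRM, enzymes of polyamine synthesis, by 0.84 and 0.81, and NOP16, a nucleolar protein, by 0.82. The lower gene, EIF4E, at -0.29, was read between 22.8 and 32.8 on all arrays, near the floor, and is named after its value was seen. Of 15 MYC network partners 2 were higher and 1 lower, beside the same shares of all genes. MAX, the obligate partner of MYC, was higher by 0.46, FBXW7, which marks MYC for degradation, by 0.38, and MLX was at -0.33, named after its value was seen.

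**Figure D4:**
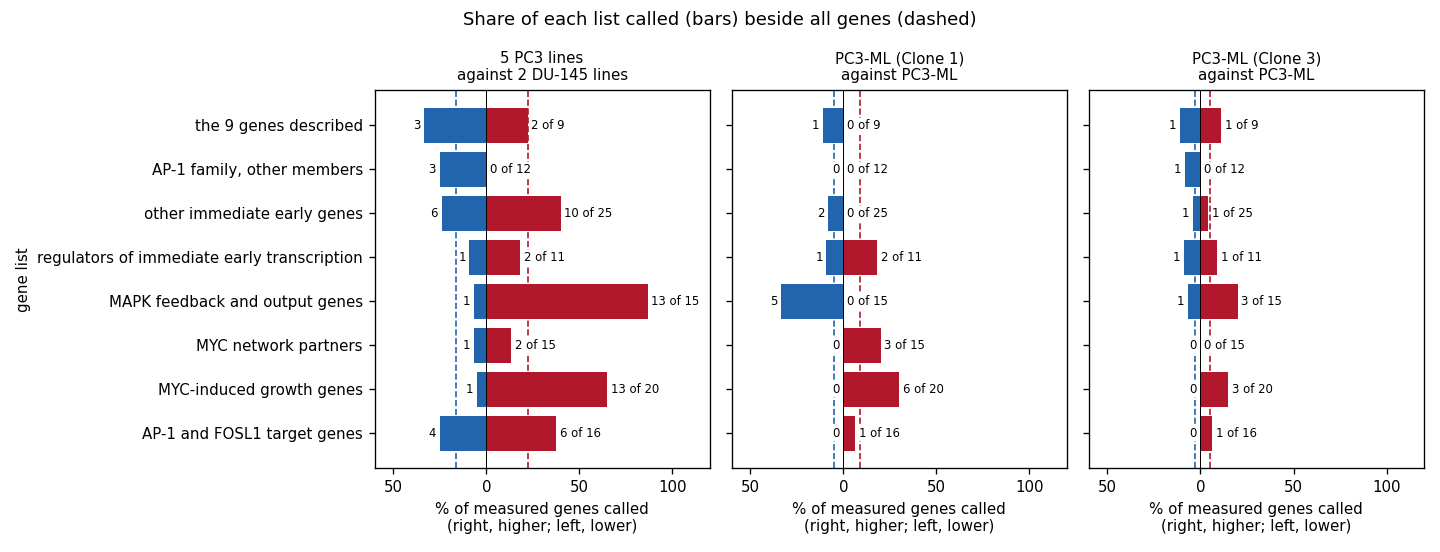
Percent of the measured genes of each list called higher (red, to the right) or lower (blue, to the left) in 3 comparisons, with the counts beside the bars and dashed lines at the percent of all 18372 genes called in that direction. MAP kinase feedback genes (13 of 15) and MYC-induced growth genes (13 of 20) are mostly higher in PC3 lines, and 5 of 15 feedback genes are lower in Clone 1.

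Growth genes in the clones are given beside the MYC value of each. In Clone 1, where MYC was at -0.07, 6 of the 20 growth genes were higher than in PC3-ML and 0 lower, beside 9.01% and 4.77% of all genes, with a median of 0.15. In Clone 3, where MYC was at 0.50, 3 were higher and 0 lower, beside 5.20% and 2.90%, with a median of 0.13. In Clone 1 against Clone 3 directly, where MYC was at -0.57, 4 were higher and 1 lower, beside 5.85% and 4.63%, with a median of 0.02. A difference between the list and MYC was not tested. CDK4 was raised in both clones. PC3-ML arrays read 395 and 499, those of Clone 1 948 and 893 and those of Clone 3 958 and 787, without overlap between either clone and PC3-ML, and the log2 differences were 1.05 ± 0.12 (adjusted p = 5.0e-04) and 0.97 ± 0.12 (adjusted p = 0.00175). Other growth genes higher in Clone 1 were TFRC, the transferrin receptor (0.75), POLR1B, a subunit of RNA polymerase I (0.73), and SRM (0.61). In Clone 3 the others were CAD, of pyrimidine synthesis (0.67), and FBL, the nucleolar methyltransferase fibrillarin (0.51).

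**Figure D5:**
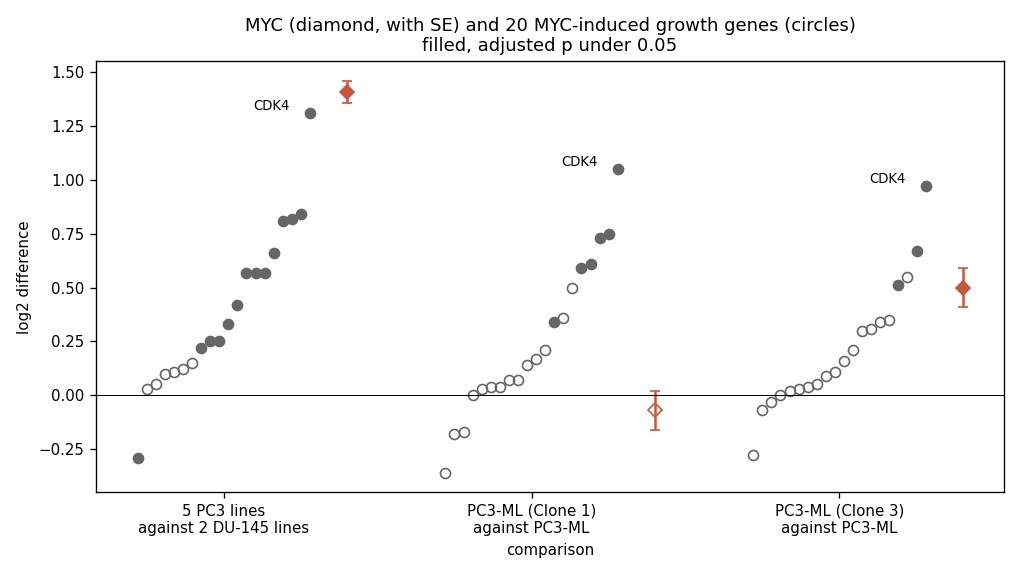
Log2 difference (vertical axis) of the 20 measured MYC-induced growth genes, each a circle in order of size, and of MYC, a diamond with its SE, in 3 comparisons (horizontal axis), filled where the adjusted p was under 0.05. CDK4 is the highest circle in all 3, at 1.31, 1.05 and 0.97, while MYC is at 1.41, -0.07 and 0.50.

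Of the 15 feedback and output genes of the MAP kinases, 5 were lower in Clone 1 than in PC3-ML, 0 were higher and 10 were not called, with a median of -0.26, beside 4.77% of all genes lower. The 5 included SPRY1 (-0.83), SPRED1 (-0.65), ETV4 (-0.65) and DUSP4 (-0.53). In Clone 3, where JUN was lower by nearly the same amount, 3 were higher and 1 lower, beside 5.20% and 2.90% of all genes, with a median of -0.00, among them PHLDA1 (0.86), SPRY1 (0.71) and DUSP6 (0.50) higher and ETV5 (-0.33) lower. Set directly against Clone 3, Clone 1 was lower in 5 of the 15 and higher in 0, beside 4.63% and 5.85% of all genes. The lower genes included SPRY1 (-1.54, limma, adjusted p = 7.0e-04) and SPRED1 (-1.21, adjusted p = 0.00124). JUN was at -0.01 ± 0.10 between the clones. PDGFRA averaged 28.8 in Clone 1, 130 in PC3-ML and 128 in Clone 3, and its part in the feedback and output genes was not tested.

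The remaining lists are read against 13.8% of all genes called in Clone 1 and 8.10% in Clone 3. Of the 25 other immediate early genes, 0 were higher and 2 lower in Clone 1 than in PC3-ML, TRIB1 (-0.58) and SGK1 (-0.39). Against PC3-N 7 of the 25 were lower in Clone 1 and 0 higher, beside 5.11% and 8.02% of all genes, with a median of -0.18, including CCN2 (-0.87), TRIB1 (-0.68), GADD45B (-0.66) and PPP1R15A (-0.55). In Clone 3 against PC3-ML, SGK1 was higher (0.41) and CCN1 lower (-0.62). MYC network partners were higher in 3 of 15 in Clone 1, MGA (0.70), MLXIP (0.54) and MLX (0.39). In Clone 3 by limma 0 of 15 were called, with 1 at an unadjusted p under 0.05, beside 3792 of all 18372 genes. Of the 11 regulators, CREB1 (0.66) and MRTFB (0.58) were higher and ETS2 (-0.48) lower in Clone 1, and ELK4 (0.34) was higher and ETS1 (-0.50) lower in Clone 3. MAFF (-0.46), a small MAF protein, was the 1 of 12 other AP-1 family members called in Clone 3. Of the AP-1 target genes, PLAU (0.73), the urokinase protease, was higher in Clone 1 and CD44 (0.30) in Clone 3.

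With the receptor overexpressed in PC3-N, 2 of 15 feedback and output genes were lower and 0 higher, SPRY1 (-0.96) and CCND1 (-0.62), the gene of cyclin D1, beside 0.680% of all genes lower. Of the AP-1 targets, CXCL8, a chemokine that attracts neutrophils, was higher (1.34) and MMP13, a collagenase, lower (-1.09). The effect on PLAU differed between the backgrounds, by 1.56 (PC3-N less DU-145, adjusted p = 0.0401). By limma 0 of the 25 other immediate early genes and 0 of the 20 growth genes were called. At an unadjusted p under 0.05 there were 6 and 2, beside 2513 of all 18372 genes. In DU-145, 0 genes of these 7 lists were called by limma, with unadjusted p under 0.05 for 1 to 7 genes a list and 2386 of all 18372 genes. In PC3-ML against PC3-N 0 were called as well, with 0 to 7 a list at an unadjusted p under 0.05, beside 1930 of all 18372 genes. The 7 were among the 15 feedback genes, with a list median of -0.26.

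For the 2 genes whose line means spanned at least 1 on the log2 scale, the other genes with the most similar pattern were sought among 2089 genes with as wide a span, by Pearson's r over the 14 arrays. Since the backgrounds form separate clusters and arrays of a line share their passage history, r is a description. Nearest to MYC were LRRC8D, a volume-regulated anion channel subunit (r = 0.985), DKK1, a secreted Wnt inhibitor (0.977), and SERPINB5, which encodes maspin (0.976). Within the 10 PC3 arrays alone r was 0.92, 0.94 and 0.85, and without Clone 3, left out after its values were seen, 0.71, 0.78 and 0.37 over 8 arrays. LRRC8D averaged 156 to 166 in the other 4 PC3 lines and 222 in Clone 3. Mean DKK1 intensity was 165 and 181 in the DU-145 lines, 529 in PC3-N(PDGFRα), 631 in PC3-N and 647 in PC3-ML, and the clones had 689 (Clone 1) and 879 (Clone 3). For EGR1 the nearest were MUC1, an epithelial mucin (0.988), SERPINA1, a protease inhibitor (0.985), and TNFRSF10D, a decoy death receptor (0.984). Within the 10 PC3 arrays r was 0.18, 0.53 and 0.29.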

How the data were processed

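Total RNA of 7 lines, 2 arrays each, was biotin-labelled and hybridised. The deposited values were intensities, which the authors made by RMA, per the submitters' processing notes. RMA subtracts background, equalises arrays and summarises probe sets, so true shifts common to all genes are removed. Its version is not given in the sources used here. Deposited intensities were linear and were converted to log2 with no pseudocount and no filter. Of 28829 probe sets, 19291 carried exactly 1 symbol, 1735 several and 7803 none, and 19260 matched a RefSeq table (GRCh38.p14), used for names and promoters. Where a gene had several probe sets (682 genes), that of highest mean stood for it, which left 18372 genes. There are no counts to give a depth, low intensities are compressed, and the number of arrays limits the precision.

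Differences were tested with limma 3.58.1 (lmFit, contrasts.fit and eBayes; R 4.3.3) in a model of line means over the 14 arrays, with 7 residual degrees of freedom, two-sided, and Benjamini-Hochberg adjustment over all genes. Passages of a line are the replicates, so p-values measure the spread between passages of a culture and not between independently derived lines. The label of bone metastasis was tested on the 7 line means, with an exact permutation test beside limma. The fit was tested on simulated data. Alternatives were quantile normalization, a filter on dim probe sets, log2(intensity + 16), the mean over probe sets, an intensity trend, the replicate number as a block, and each array or line left out.

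The members and the 11 lists were chosen with earlier results of these data known. The text names all 9 members, from each list up to 4 called genes per comparison whose arrays do not overlap between lines, PDGFRA, and for members whose line means span at least 1 the 3 genes with the most similar pattern. Small RNAs and unnamed loci were left out by that rule, and Y-linked genes after their values were seen.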

Additional observations from a re-analysis of the deposited data

Results flagged for a closer look

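MYC differed between the clones by -0.57 on the log2 scale (Clone 1 minus Clone 3; limma, adjusted p = 0.00264). MYC was singled out as the 1 of 9 genes called between the clones, beside 10.5% of all genes, so these values are those that selected it. The clones share the parent PC3-ML, so their difference asks whether MYC moved by the same amount in both. The arrays read 295 and 320 in Clone 1 and 503 and 414 in Clone 3, lower in 2 of 2 Clone 1 arrays than in either Clone 3 array. The difference ran from -0.71 to -0.43 over the alternatives.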

How the results depend on the processing

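No difference of a called gene changed its sign under any alternative run. For the 9 genes, 3 calls in a comparison were lost and 1 gained under 6 settings of the processing, and 14 were lost and 7 gained when 1 array or line was left out. The number of genes called in Clone 1 against PC3-N fell from 2 to 1 under quantile normalization, the filter on dim probe sets and the intensity trend, and was 0 to 1 with 1 array left out. With 1 array left out it was 1 to 2 in Clone 3 against PC3-N, 0 to 2 in Clone 3 against PC3-ML and 4 to 6 between the backgrounds, and with 1 array or line left out 0 to 4 by the label of bone metastasis, where 4 came without the line PC3-N. The filter left 11740 genes and 7 of the 9, without FOS and EGR3, which is the limit that signal over background sets.

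Among all genes, the number called in PC3-ML against PC3-N was 64, and 103 after the filter, 42 with the replicate block and 12 to 170 with 1 array left out. In DU-145 (PDGFRα) against DU-145 it was 57, and 20 with a pseudocount of 16, 10 with the replicate block, 91 with an intensity trend and 15 to 418 with 1 array left out. For the receptor in PC3-N it was 405 and 71 to 404, and for the difference of the receptor's effects 98 and 26 to 249, each with 1 array left out. For Clone 1 it was 2412 and 1325 to 1703 against PC3-N, 2533 and 1213 to 1981 against PC3-ML, and 1925 and 1018 to 1123 against Clone 3. For Clone 3 it was 1260 and 604 to 843 against PC3-N and 1489 and 431 to 1232 against PC3-ML. By the label of bone metastasis it was 0, and 2520 without the line PC3-N. The cause was not tested.

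The labels do not state whether the replicate numbers pair arrays across lines. Deviations of same-numbered arrays correlated at -0.20 to 0.24 (median 0.04), above 0.1 in 5 of 21 pairs of lines, which does not settle it. With the replicate block, 5 of the 9 genes were called between the backgrounds, and no call of these genes changed in any comparison. The comparison by label has no such fit, since it uses line means.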

Other observations

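The genes that lie next to MYC on its chromosome, 10 on each side in the order of the RefSeq table, were chosen after the values of MYC were seen. In the PC3 lines against the DU-145 lines 9 of the 20 were higher, 3 lower and 8 not called, with a median log2 difference of 0.16, beside 22.3% and 16.5% of all genes. The higher genes included TRIB1 (0.96), NDUFB9 (0.71), NSMCE2 (0.69), CYRIB (0.69), ASAP1 (0.67) and WASHC5 (0.57), on both sides of MYC. KCNQ3 (-0.69), ZNF572 (-0.44) and MTSS1 (-0.19) were lower. Among the 9 higher genes, NDUFB9, SQLE, WASHC5 and DNAAF11 had their highest mean intensity, like MYC, in Clone 3, at 1178, 510, 323 and 77.5. The rest did not: NSMCE2, TRIB1, CYRIB and ASAP1 were highest in PC3-N, at 551, 70.0, 413 and 847. LRATD2 was highest in PC3-N(PDGFRα), at 72.9. The share of all genes with their highest mean in Clone 3 was not counted.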
